A study of Mus musculus with 5 samples.

Results

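*Socs1*, *Socs2*, *Socs3* and *Cish* encode suppressors of cytokine signalling, the proteins with which a cell turns down its own response to cytokines. These 4 genes were taken by name from the 55487 genes counted in thymic CD4 single positive (SP) cells, and all 4 passed the filter on low counts that left 13525 genes for testing. In cells that lacked TET2 and TET3, the 4 genes did not move together. *Socs3* rose 2.58-fold and *Cish* fell 1.81-fold past an adjusted p-value threshold of 0.01 in edgeR, while *Socs1* lay 1.58-fold higher and *Socs2* 2.82-fold lower without passing it. DESeq2 called all 4 at the same threshold.

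CD4 SP cells are thymocytes that have kept CD4 and lost CD8. They were sorted as live, CD24 low, CD4+, CD8-, TCRb+ cells that did not bind the CD1d tetramer, from 3 wild type (WT) mice and 2 *Tet2/3* DKO mice of the C57BL/6J strain, with 1 library per mouse. *Tet2/3* DKO stands for Tet2-/-Tet3flx/flxCD4cre: *Tet2* was disrupted in the germline, and *Tet3* was deleted by a Cre recombinase under *Cd4* control, which is active from the double positive (DP) stage onwards. The WT mice are labelled as wild type with no further allele. The methods of the study describe young mice, around weaning or shortly after it. TET proteins oxidise methylated cytosine in DNA, and the comparison asks which genes change in CD4 SP cells when TET2 and TET3 are lost.

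Between 17607089 and 27267031 reads were counted on genes per library. *Tet3* had 1133, 1082 and 1440 reads in the WT libraries and 419 and 235 in the *Tet2/3* DKO libraries. *Tet2* was not lower, with 1355, 1286 and 1585 reads in WT against 1919 and 1048 in *Tet2/3* DKO mice, and scaled to library size (CPM) both *Tet2/3* DKO libraries lay above WT, at 91.5 and 58.6 CPM against 52.4, 54.2 and 57.8. Reads per gene do not show whether an exon is missing, so these values do not check the *Tet2* part of the label. The sex labels did not match the transcripts in 2 libraries. WT replicate 1, labelled female, had 0 *Xist* reads and 6821 reads on 4 Y-linked genes. *Tet2/3* DKO replicate 1, labelled male, had 744 *Xist* reads and 7 reads on the Y-linked genes. By these transcripts *Tet2/3* DKO replicate 1 was the only library of a female, so that values without it are given for each SOCS gene. Sex and genotype can be told apart only through *Tet2/3* DKO replicate 2.

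Cytokine receptors of the JAK-STAT type carry JAK kinases, which phosphorylate STAT transcription factors. Active STATs enter the nucleus and switch on, among other genes, the SOCS genes, so that SOCS transcripts are widely read as a record of recent cytokine signalling. SOCS1 and SOCS3 can block JAK kinases directly, SOCS1 being best known for restraining interferon-gamma and common gamma chain cytokines and SOCS3 for restraining IL-6 and other cytokines that use gp130. CIS, the product of *Cish*, is induced by STAT5 and restrains IL-2 and T cell receptor signalling, and SOCS2 is best known for restraining growth hormone. All 4 proteins hold an SH2 domain, which binds phosphorylated tyrosine, and a SOCS box, which recruits elongins and a cullin to mark bound proteins for degradation. In thymocytes SOCS1 is known to hold back IL-7 and IL-15 signals during selection.

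Since STATs are known activators of these genes, the sequences around the RefSeq start sites of *Socs3*, *Cish* and *Socs1* are shown (GRCm38.p6, 5′ to 3′ on the strand of the gene, from 250 bases before the start site to 50 bases after it). Capitals mark matches to TTCNNNGAA, the core letters to which STAT dimers are known to bind. The same letters with 4 bases in place of 3 between TTC and GAA, the wider spacing preferred by STAT6, were searched as well. Both motifs read the same on either strand. A window was matched for 3 of the 4 genes, and *Socs2* is the other.
Socs3 (chr11:117969317-117969616, minus strand): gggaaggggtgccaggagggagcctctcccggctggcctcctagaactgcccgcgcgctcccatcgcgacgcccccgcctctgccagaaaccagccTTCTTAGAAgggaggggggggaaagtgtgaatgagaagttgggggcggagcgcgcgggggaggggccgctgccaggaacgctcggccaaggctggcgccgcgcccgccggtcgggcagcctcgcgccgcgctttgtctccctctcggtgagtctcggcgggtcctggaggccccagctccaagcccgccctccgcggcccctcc
Cish (chr9:107296409-107296708, plus strand): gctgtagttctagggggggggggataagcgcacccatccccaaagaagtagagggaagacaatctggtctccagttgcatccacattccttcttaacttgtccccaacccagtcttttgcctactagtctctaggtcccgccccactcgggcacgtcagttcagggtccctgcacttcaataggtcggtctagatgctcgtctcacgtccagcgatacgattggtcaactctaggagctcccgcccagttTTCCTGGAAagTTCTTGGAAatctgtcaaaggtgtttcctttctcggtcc
Socs1 (chr16:10785487-10785786, minus strand): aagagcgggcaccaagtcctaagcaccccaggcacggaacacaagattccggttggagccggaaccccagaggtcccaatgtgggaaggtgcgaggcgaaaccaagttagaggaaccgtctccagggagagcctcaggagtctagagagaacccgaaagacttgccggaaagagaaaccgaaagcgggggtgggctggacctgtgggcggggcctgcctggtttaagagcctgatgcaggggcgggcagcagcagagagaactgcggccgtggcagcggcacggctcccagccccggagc

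The *Socs3* window held 1 match to TTCNNNGAA, with its first base at -154 from the start site, and the *Cish* window held 2, with first bases at 1 and 12. The *Socs1* window held none, and no window held the wider motif. Of 32851 windows of the same length around RefSeq start sites, 8.30% held TTCNNNGAA and 6.95% held the wider motif. The gene that rose past the threshold and the gene that fell past it thus both carried the motif. CpG dinucleotides, the sites that carry DNA methylation, numbered 31 in the *Socs3* window, 18 in the *Socs1* window and 11 in the *Cish* window, against a median of 7. No methylation was analysed here, and a match of letters is not a bound site. In GENCODE M21, *Socs3* and *Cish* begin farther upstream, so that their windows fall inside the annotated genes, and the *Cish* window also lies within the span of *Gm17040*, a gene on the opposite strand.

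*Socs3* (ENSMUSG00000053113, chromosome 11 of mm10, from 117966079 to 117970047, minus strand), the brake on gp130 cytokines, was counted 415, 448 and 496 times in WT replicates 1, 2 and 3 and 745 and 998 times in *Tet2/3* DKO replicates 1 and 2. Per 1000000 reads on genes, with library sizes adjusted by TMM factors (CPM), these were 16.1, 18.9 and 18.1 in WT and 35.5 and 55.8 CPM in *Tet2/3* DKO cells. The WT libraries lay close together, and both *Tet2/3* DKO libraries lay above all of them. The *Tet2/3* DKO libraries differed from each other as well, with 1.57 times more in replicate 2 than in replicate 1. The means were 17.7 ± 1.46 CPM (SD, n = 3) and 45.7 ± 14.4 CPM (SD, n = 2), which gave a log2 fold change of 1.36 ± 0.19 (SE; adjusted p = 0.00233, quasi-likelihood test of edgeR, adjusted by Benjamini-Hochberg). *Socs3* ranked 262 of 13525 genes by p-value. Without *Tet2/3* DKO replicate 1 the log2 fold change of *Socs3* was 1.66, and without replicate 2 it was 0.99. When any single WT library was dropped, *Socs3* no longer passed the threshold of 0.01, with log2 fold changes from 1.30 to 1.41 and edgeR adjusted p-values of 0.0201, 0.0250 and 0.0255 without WT replicates 1, 2 and 3.

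*Cish* (ENSMUSG00000032578, chromosome 9 from 107296026 to 107302784, plus strand), the STAT5-induced brake, moved the other way. The reads numbered 656, 697 and 752 in the WT libraries, and 337 and 251 in those of *Tet2/3* DKO mice, which scaled to 25.4, 29.4 and 27.4 CPM and to 16.1 and 14.0 CPM. Each group was tight, and both *Tet2/3* DKO libraries lay below the lowest WT library by 9.31 CPM or more. The mean of *Cish* fell from 27.4 ± 2.0 CPM (SD, n = 3) to 15.1 ± 1.43 CPM (SD, n = 2), at a log2 fold change of -0.86 ± 0.14 (SE; adjusted p = 0.00621, edgeR). Without *Tet2/3* DKO replicate 1 the log2 fold change of *Cish* was -0.96, and without replicate 2 it was -0.78. As with *Socs3*, the call of *Cish* was lost when any WT library was left out, with edgeR adjusted p-values of 0.0308, 0.0417 and 0.0374 without WT replicates 1, 2 and 3.

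The counts of *Cish* made without regard to strand, on which the values above rest, held under 50% of the reads that the counts by strand assign to it. By strand, *Cish* was assigned 1353, 1440 and 1575 reads in WT against 692 and 549 in *Tet2/3* DKO mice, and the counts without regard to strand kept from 45.7% to 48.7% of these. For *Socs1*, *Socs2* and *Socs3* the counts without regard to strand kept every read. *Cish* shares exonic bases with 2 genes annotated on the opposite strand, 261 with *Gm17040* and 479 with *Gm17041*, or 4.07% and 7.46% of its exonic bases, and reads that overlap more than 1 gene are left out by the counting. *Gm17040* had at most 4 reads of its own in a library and *Gm17041* had 0 in all 5. These libraries do not keep strand, so reads of *Cish* and of an antisense partner cannot be told apart. With the reads of each strand summed, the log2 fold change of *Cish* was -0.83 ± 0.11 (SE; adjusted p = 0.00269, edgeR), so the fall was present on either count.

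**Figure D1:**
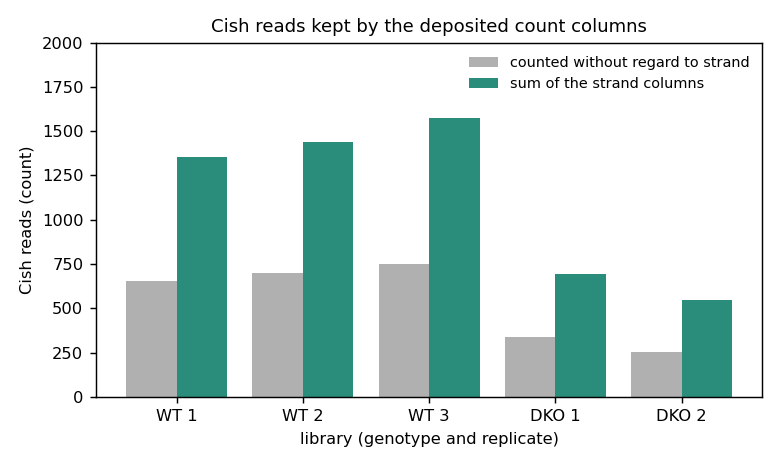
*Cish* reads in each library, as counted without regard to strand (grey) and as the sum of the columns for each strand (green), in numbers of reads. In every library the grey bar holds between 45.7% and 48.7% of the green bar, and the 2 *Tet2/3* DKO libraries are below the 3 WT libraries on both.

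*Socs1* (ENSMUSG00000038037, chromosome 16 from 10782240 to 10785536, minus strand), the brake on interferon-gamma and common gamma chain cytokines, drew 940, 871 and 1368 reads in WT, against 1497 and 1034 in *Tet2/3* DKO libraries. These were 36.4, 36.7 and 49.8 CPM in WT and 71.4 and 57.9 CPM in *Tet2/3* DKO cells. WT replicate 3 stood above the other WT libraries, and the lower *Tet2/3* DKO library was 8.0 CPM above it, so the groups did not overlap. The log2 fold change of 0.66 ± 0.16 (SE; adjusted p = 0.0355, edgeR) did not pass the threshold. Without WT replicates 1, 2 and 3 in turn it was 0.58, 0.58 and 0.82 (adjusted p = 0.157, 0.153 and 0.0244, edgeR). Without *Tet2/3* DKO replicate 1 it was 0.49, and without *Tet2/3* DKO replicate 2 it was 0.78.

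*Socs2* (ENSMUSG00000020027, chromosome 10 from 95385362 to 95417180, minus strand), the brake on growth hormone signalling, was the least counted of the 4 genes. It had 108, 124 and 145 reads in WT against 24 and 43 in *Tet2/3* DKO mice, or 4.18, 5.22 and 5.28 CPM against 1.14 and 2.41 CPM. Both *Tet2/3* DKO libraries were below every WT library, and they differed 2.10-fold from each other. The log2 fold change of *Socs2* was -1.50 ± 0.35 (SE; adjusted p = 0.0277, edgeR). It was the largest change in size among the 4 genes and the least precise, and it did not pass the threshold. Without *Tet2/3* DKO replicate 1 it was -1.03, and without *Tet2/3* DKO replicate 2 it was -2.11. Without WT replicates 1, 2 and 3 in turn the edgeR adjusted p-values of *Socs2* were 0.0656, 0.117 and 0.108.

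**Figure D2:**
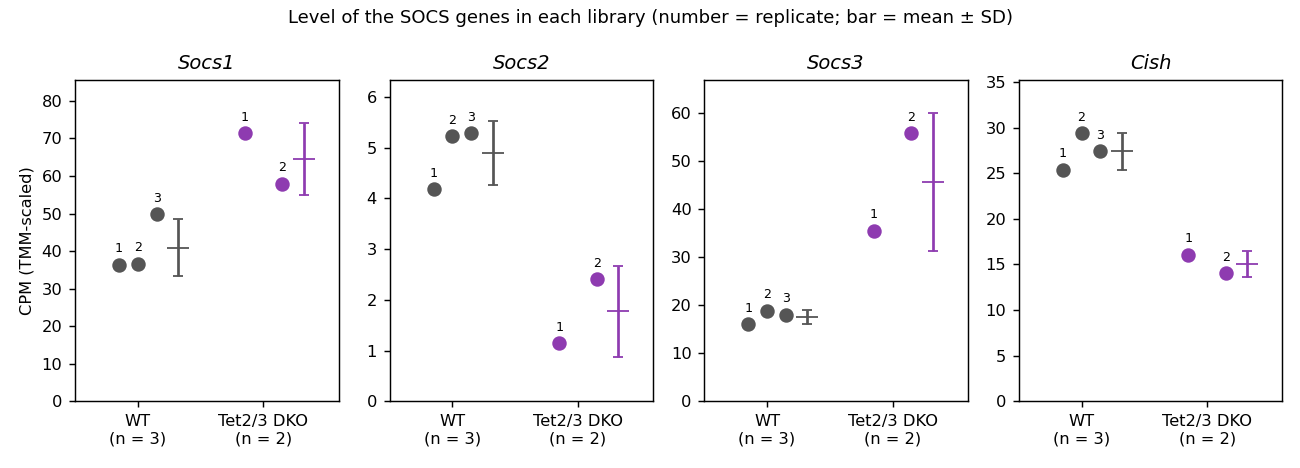
Level of *Socs1*, *Socs2*, *Socs3* and *Cish* in each library, in CPM (vertical axes start at 0 and differ between panels); each point is a library, numbered by replicate, and the bars give the mean ± SD of the 3 WT and 2 *Tet2/3* DKO libraries. The groups overlap for none of the 4 genes: *Tet2/3* DKO libraries are higher for *Socs1* and *Socs3* and lower for *Socs2* and *Cish*.

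At the adjusted p-value threshold of 0.01, 2 of the 4 SOCS genes were therefore called by edgeR, where 3.92% of all tested genes were. DESeq2's Wald test, the tool of the study, called all 4, where it called 6.91% of the genes it gave an adjusted p, with adjusted p-values of 0.00420 for *Socs1*, 0.00533 for *Socs2*, 5.75e-09 for *Socs3* and 4.29e-06 for *Cish*. In all 4 genes the *Tet2/3* DKO libraries fell outside the range of WT, above in 2 and below in 2, which held for 39.1% of all tested genes (above in 19.6%, below in 19.5%). At a threshold of 0.05 edgeR called all 4, where it called 8.68% of all tested genes. The directions were the same in all 18 alternative settings for each gene. The threshold of 0.05 is counted among these and keeps the same fit. As the groups did not overlap, leaving out a library could not have turned a direction. The log2 fold change ran from 0.49 to 0.82 for *Socs1*, from -2.11 to -1.03 for *Socs2*, from 0.99 to 1.66 for *Socs3* and from -0.96 to -0.78 for *Cish*. RNA of sorted cells in bulk cannot tell fewer cells with a transcript from less transcript per cell.

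**Figure D3:**
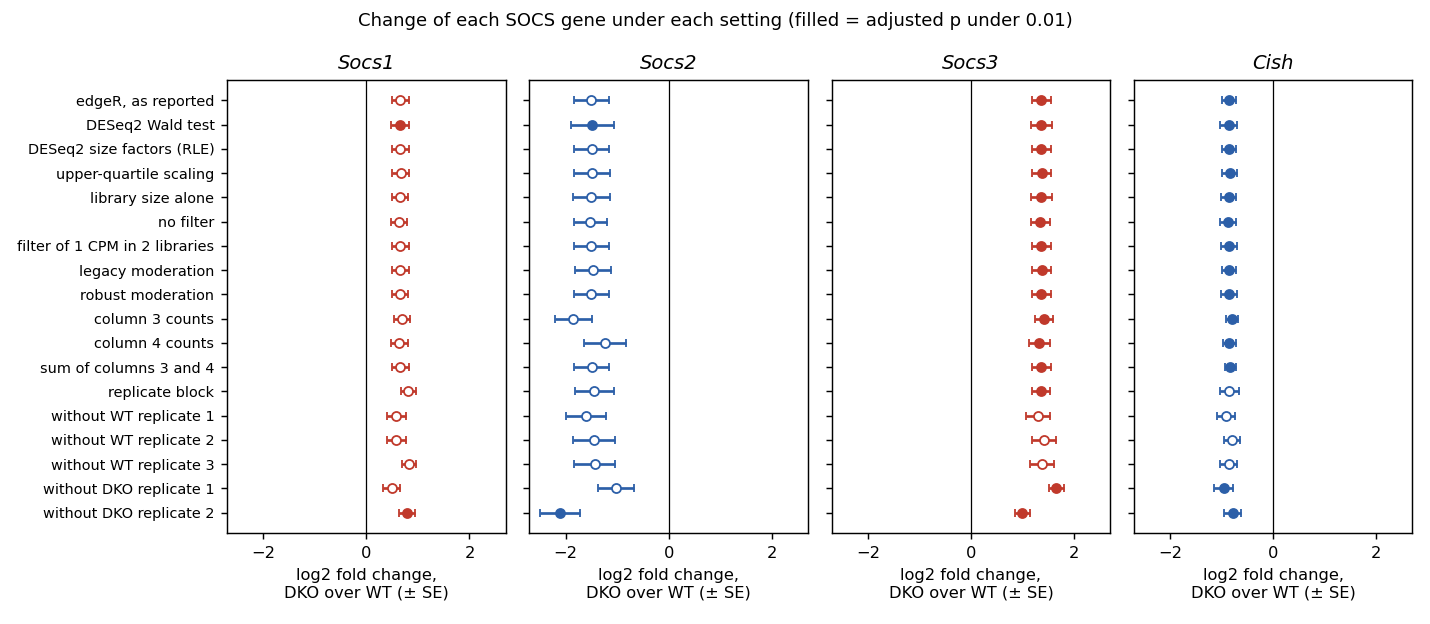
Log2 fold change of *Tet2/3* DKO over WT (horizontal axis, ± standard error) of the 4 SOCS genes under the fit as reported and the alternatives that give a fit of their own (rows); filled points have an adjusted p under 0.01. All points of *Socs1* and *Socs3* lie right of 0 and all points of *Socs2* and *Cish* left of it, while filling changes with DESeq2, the replicate block and the library left out.

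Levels were compared between the genes only per kilobase, of the longest coding transcript unless stated. With the reads of each strand summed, *Cish* was the highest of the 4 genes in WT cells at 19.9 ± 1.47 CPM per kb (SD, n = 3), followed by *Socs1* at 14.1 ± 2.65, *Socs3* at 6.92 ± 0.57 and *Socs2* at 2.20 ± 0.28, and no neighbours in this order overlapped between libraries. In *Tet2/3* DKO cells the order was *Socs1* at 22.2 ± 3.29 CPM per kb (SD, n = 2), *Socs3* at 17.9 ± 5.63, *Cish* at 11.2 ± 0.56 and *Socs2* at 0.80 ± 0.40. There *Socs1* and *Socs3* overlapped between libraries, at 24.5 and 19.9 CPM per kb of *Socs1* against 13.9 and 21.9 of *Socs3*. On the counts without regard to strand, which hold fewer reads for *Cish*, *Socs1* and not *Cish* was the highest in WT, with *Cish* at 9.61 ± 0.70 CPM per kb. With all annotated exonic bases as the length in place of the longest coding transcript, which more than doubles that of *Cish*, *Socs1* was again above *Cish* in WT. *Socs2* was the lowest on each of these scales and in either genotype.

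The ratio of *Socs3* to *Cish* per kilobase, with the reads of each strand summed, was 0.343, 0.347 and 0.352 in the WT libraries and 1.2 and 2.03 in the *Tet2/3* DKO libraries. The WT libraries agreed closely, and the *Tet2/3* DKO libraries were those in which *Socs3* exceeded *Cish*. The log2 ratio was 2.17 higher in *Tet2/3* DKO cells, which restates the changes of both genes on a single scale. The ratio is set within a library and so does not depend on how libraries were scaled. On the counts without regard to strand it went from between 0.706 and 0.737 in WT to 2.47 and 4.44 in *Tet2/3* DKO libraries. Over all exonic bases *Cish* stayed above *Socs3* in WT with the strands summed, at 8.85 against 6.11 CPM per kb, but not without regard to strand, at 4.27 against 6.11.

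Genes whose profile over the 5 libraries lay nearest to each SOCS gene were found by the root mean square difference in log2 CPM relative to the WT mean, among well expressed genes. Nearest to *Socs3* were *Ccr4*, the receptor of the chemokines CCL17 and CCL22, at 0.12, *Gm14085* at 0.13 and *Srgn*, which encodes the granule proteoglycan serglycin, at 0.15. Nearest to *Cish* were *Aldh2*, a mitochondrial aldehyde dehydrogenase, at 0.046, *Syne2*, which links the nucleus to the cytoskeleton, at 0.055 and *Tns1*, a focal adhesion protein, at 0.055. Nearest to *Socs2* were *Sdcbp2* at 0.15, *Foxp3*, the defining factor of regulatory T cells, at 0.22 and *Fanci*, a DNA repair gene, at 0.23. Nearest to *Socs1* were *Pot1b*, a telomere protein, at 0.099, *Plekha3* at 0.10 and *Tent5a* at 0.11. These are descriptions over 5 libraries of 2 genotypes, in which any genes of like fold change lie near each other.

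The other genes of the pathway were read from 9 lists by role, which together hold 125 genes, of which 105 were tested. Of these 105, 9 were higher and 6 lower in *Tet2/3* DKO cells past the threshold, or 14.3%, against 3.92% of all genes, 2.42% called higher and 1.5% called lower. The median log2 fold change was 0.08 over the 105 genes and 0.01 over all genes tested. Of the 15 called genes, 9 were called in none of the fits that left out a WT library.

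Of *Socs4*, *Socs5*, *Socs6* and *Socs7* and the SOCS box partners *Elob*, *Eloc*, *Cul5*, *Cul2*, *Rnf7* and *Rbx1*, 0 of 10 were called by edgeR and 0 of 10 by DESeq2, where 3.92% and 6.91% of all genes were. An unadjusted edgeR p under 0.05 was seen for 0 of 10, against 23.0% of all genes, and groups that did not overlap for 0 of 10, against 39.1%. Their log2 fold changes ran from -0.17 to 0.12, with a median of -0.03 and the lowest adjusted p at 0.587 (edgeR). Of 13 other brakes on the pathway, among them the phosphatases *Ptpn2* and *Ptpn6* and the PIAS proteins, 0 were called by edgeR and 0 by DESeq2, and 3 had an unadjusted edgeR p under 0.05. Groups did not overlap for 7 of the 13, against 39.1% of all genes. The log2 fold changes of the 13 ran from -0.41 to 0.70, with a median of 0.08. The highest was that of *Usp18* (adjusted p = 0.0849, edgeR), which rests on *Tet2/3* DKO replicate 1. *Usp18* had 496 and 292 CPM in *Tet2/3* DKO replicates 1 and 2 against 202 to 299 in WT. The lowest adjusted p among the 13 was 0.0402, for *Cblb*, a ubiquitin ligase that restrains T cell activation, with a log2 fold change of 0.55 (edgeR).

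Of the 11 JAK and STAT genes edgeR called 1 and DESeq2 called 3, 2 higher and 1 lower, where they called 3.92% and 6.91% of all genes. The median log2 fold change of the 11 was -0.12. *Stat4*, which carries IL-12 signals, was higher in *Tet2/3* DKO cells at 99.3 ± 14.6 CPM (SD, n = 2) against 27.8 ± 0.74 (SD, n = 3). *Jak2*, the kinase of the growth hormone and prolactin receptors, had a log2 fold change of 0.55 (adjusted p = 0.0256 by edgeR and 0.00321 by DESeq2). *Stat5a*, an activator of *Cish*, had a log2 fold change of -0.55 (adjusted p = 0.0208, edgeR), which DESeq2 called (adjusted p = 0.000884), and its near copy *Stat5b*, with which it can share reads, one of -0.28 (adjusted p = 0.217, edgeR). *Stat3*, an activator of *Socs3*, had one of -0.11 (adjusted p = 0.589, edgeR). Of the STAT genes best known to drive *Cish* and *Socs3*, edgeR thus called none and DESeq2 *Stat5a*.

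Of 27 receptor genes 21 were tested (median log2 fold change 0.18). Of these edgeR called 1 higher and 2 lower, where it called 2.42% of all genes higher and 1.5% lower. DESeq2 called 2 higher and 5 lower, adding *Il12rb2* (log2 fold change 1.57) above and *Ifnar1* (-0.45), *Il27ra* (-0.32) and *Il7r* below, where it called 6.91% of all genes. *Ifngr1*, the ligand-binding chain of the interferon-gamma receptor, rose, with 273 ± 18.8 CPM in WT (SD, n = 3) and 510 ± 0.16 in *Tet2/3* DKO cells (SD, n = 2), at a log2 fold change of 0.90 ± 0.09 (SE; adjusted p = 0.000364, edgeR). *Il6ra*, which binds IL-6 and pairs with the gp130 chain that SOCS3 restrains, fell, with 293 ± 1.13 CPM in WT and 158 ± 29.6 in *Tet2/3* DKO cells, with a log2 fold change of -0.89 ± 0.12 (SE; adjusted p = 0.00185, edgeR). The gp130 gene itself, *Il6st*, had a log2 fold change of -0.28 (adjusted p = 0.225, edgeR). *Prlr*, the prolactin receptor, a relative of the growth hormone receptor that SOCS2 restrains, had 163, 174 and 255 reads in WT against 12 and 23 in *Tet2/3* DKO mice, with a log2 fold change of -3.08 ± 0.39 (SE; adjusted p = 0.00172, edgeR). Of the receptor chains of the common gamma family, *Il7r* had a log2 fold change of -0.29 (adjusted p = 0.0609 by edgeR and 0.0076 by DESeq2), *Il2rb* one of 0.39 (adjusted p = 0.148, edgeR) and *Il2ra* one of -0.52 (adjusted p = 0.455, edgeR). The last 2 values each rest on 1 library. *Il2rb* stood at 222 and 329 CPM in *Tet2/3* DKO replicates 1 and 2 against at most 224 in WT, and *Il2ra* at 11.4 and 38.3 CPM against 33.7 to 37.4 in WT, so that *Il2ra* was low in replicate 1 only.

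Of 17 cytokine genes only 5 passed the filter on low counts, and edgeR called 1 of them, where it called 3.92% of all genes. *Il4* had 18, 16 and 13 reads in WT against 58 and 61 in *Tet2/3* DKO mice, with a log2 fold change of 2.32 ± 0.35 (SE; adjusted p = 0.00402, edgeR). The median log2 fold change over the 5 was 1.36, that of *Ifng*, which rests on *Tet2/3* DKO replicate 2. *Ifng* had 18, 6 and 27 reads in WT against 11 and 55 in *Tet2/3* DKO mice, and *Il21* had 39, 48 and 28 against 9 and 237. In both genes *Tet2/3* DKO replicate 2 alone lay above the WT libraries. The same library stood apart for *Il10*, with 86 reads against 0 in *Tet2/3* DKO replicate 1, and for *Lif*, with 61 against 6. It was also the library with the higher *Socs3*, and the part of these cytokine genes in that was not tested.

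Known targets of the pathway were split by the signal that induces them. Of 17 STAT5 targets other than the SOCS genes, 3 fell and 0 rose by edgeR, where 1.5% and 2.42% of all genes did. Their median log2 fold change was -0.16. At an unadjusted p under 0.05 the count in either direction was 11 of 17, where 23.0% of all genes passed. DESeq2 called 3 lower and 1 higher, the kinase gene *Pim2*, with a log2 fold change of 0.45 (adjusted p = 0.0105 by edgeR and 3.2e-05 by DESeq2). The 3 that fell were *Foxp3* (log2 fold change -1.31), the cell cycle gene *Ccnd3* (-0.67) and the ERK phosphatase *Dusp6* (-0.74). *Pim1*, a relative of *Pim2*, had a log2 fold change of -0.39 (adjusted p = 0.337, edgeR), and the survival gene *Bcl2* one of 0.82 (adjusted p = 0.105, edgeR). The value of *Bcl2* rests on *Tet2/3* DKO replicate 1, with 373 CPM there and 156 in replicate 2 against 149 to 151 in WT. Over the 17 genes 10 lay below 0 and 7 above. Of 19 interferon-induced genes tested, only *Ly6a*, a surface protein of activated T cells, was called, at a log2 fold change of 1.30 (adjusted p = 0.000204, edgeR), while the median over the 19 was 0.41, with 14 above 0 and 5 below. DESeq2 called 5 of the 19 higher and 0 lower, and 12 had an unadjusted edgeR p under 0.05, where 23.0% of all genes did. The values ran from -0.35 for *Irf1*, an interferon-induced transcription factor (adjusted p = 0.108, edgeR), to 2.36 for the chemokine gene *Cxcl10* (adjusted p = 0.0121, edgeR).

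Of 11 STAT3 targets tested, 3 rose and 1 fell by edgeR, where 2.42% and 1.5% of all genes did. The median log2 fold change was 0.78, that of *Hif1a*, which was not called and rests on *Tet2/3* DKO replicate 2. *Hif1a* had 45.0 and 88.7 CPM in *Tet2/3* DKO replicates 1 and 2 against 35.3 to 44.6 in WT. *Junb* and *Fos* lay above WT in replicate 1 only, and *Il21* in replicate 2 only. Among those that rose, the transcription factor gene *Maf* had a log2 fold change of 3.09 and *Batf*, an AP-1 family member, one of 0.79. *Bcl3*, an NF-kB cofactor, fell by 0.73 on the log2 scale. *Maf* had 189 and 596 reads in the *Tet2/3* DKO libraries, and its log2 fold change was 1.87 without replicate 2. Of 5 STAT6 targets tested, with a median log2 fold change of 1.33, 3 rose, where 2.42% of all genes did. Among them were *Il4* and *Ccr4* (log2 fold change 1.33). *Gata3* had a log2 fold change of -0.52 (adjusted p = 0.0566, edgeR).

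**Figure D4:**
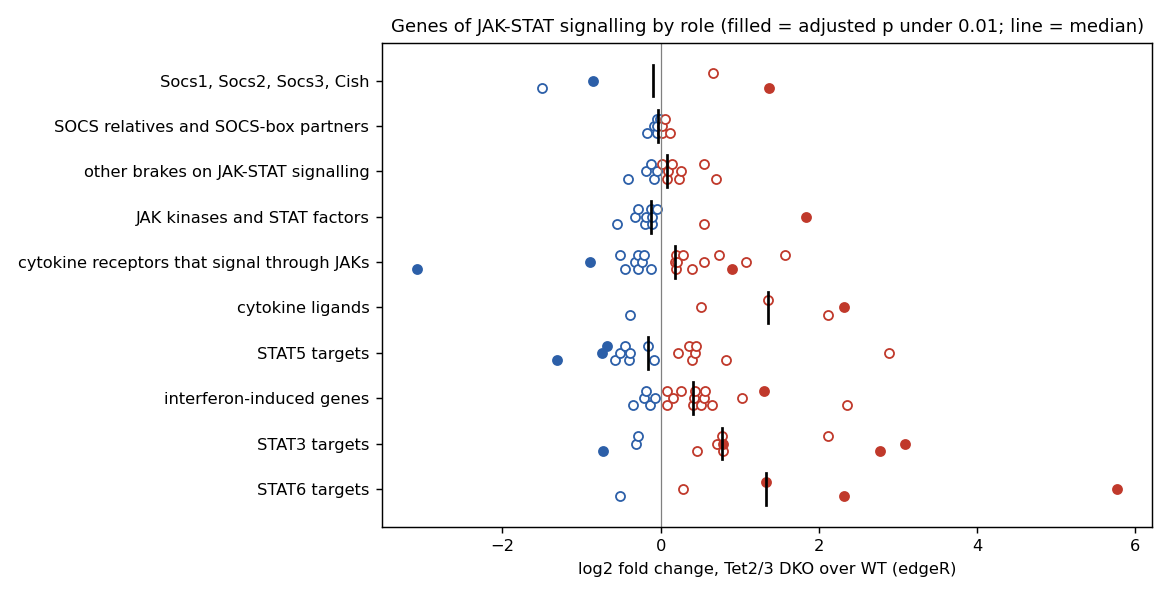
Log2 fold change of *Tet2/3* DKO over WT (horizontal axis) of each tested gene, by role in JAK-STAT signalling (rows); filled points have an adjusted p under 0.01, red points are above 0, blue points below, and the black line is the median of the row. The 4 SOCS genes in the first row spread from -1.50 to 1.36, while their relatives and SOCS box partners in the second row lie between -0.17 and 0.12.

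Marker genes of other cell types differed between the genotypes, and their part in the changes of the SOCS genes was not tested. The CD4 SP markers *Cd3d*, *Cd3e*, *Cd3g* and *Lck* had no call, while *Cd4*, *Zbtb7b* and *Ccr7* fell, and the 8 markers together held 12185 to 12968 CPM in WT and 10424 to 11832 in *Tet2/3* DKO libraries. Of 5 markers of regulatory T cells, edgeR called *Foxp3* lower and DESeq2 *Foxp3* and *Tnfrsf18*. *Tnfrsf18* was the largest part of their sums, which were 347 to 415 CPM in WT and 265 to 301 in *Tet2/3* DKO libraries. *Ikzf2* (log2 fold change 0.37) and *Ctla4* (0.09) lay above 0 without a call, *Ikzf2* through *Tet2/3* DKO replicate 1 and *Ctla4* through replicate 2. Of 4 iNKT cell markers all 4 rose, where 2.42% of all genes did, although cells that bound the CD1d tetramer had been left out by the sort. Their sums of 255 to 292 CPM in WT and 589 to 736 in *Tet2/3* DKO libraries were mostly *Slamf6* (log2 fold change 1.14), while *Zbtb16* (3.85), *Cd160* (3.17) and *Klrb1c* (2.7) changed more. Of 4 gamma-delta T cell markers the gamma chain genes *Tcrg-C1* and *Tcrg-C2* rose, while *Trdc*, the delta chain gene, was not called. The lineage factor *Sox13* went the other way without a call, with 28, 25 and 26 reads in WT against 5 and 4 in *Tet2/3* DKO mice (log2 fold change -2.12, adjusted p = 0.0366, edgeR). The 4 together held 24.2 to 26.2 CPM in WT against 183 and 282 in *Tet2/3* DKO mice, a rise carried by *Tcrg-C1* and *Tcrg-C2*. Of 5 NK cell markers 2 rose, and the 5 together held 2.40 to 2.75 CPM in WT against 9.01 and 17.7 in *Tet2/3* DKO mice.

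Of 6 myeloid markers, the cells in which *Socs3* is also well known, 5 were tested and 0 were called by edgeR or by DESeq2, while 4 had an unadjusted edgeR p under 0.05. Their sum was 110 to 124 CPM in WT against 150 and 223 in *Tet2/3* DKO mice, with *Tet2/3* DKO replicate 2 the higher, as for *Socs3*. The sum was mostly *Cst3*. *Lyz2* had 279, 246 and 160 reads in WT against 390 and 759 in *Tet2/3* DKO mice, and *Itgax* had at most 2 reads and *Csf1r* at most 19 in any library. The CD8 T cell markers *Cd8a* and *Cd8b1* summed to 68.8 to 77.1 CPM in WT against 34.3 and 35.8 in *Tet2/3* DKO mice. The sum was mostly *Cd8b1*, which fell, while *Cd8a* went the other way, with 2.71, 2.91 and 5.39 CPM in WT against 5.77 and 8.67 in *Tet2/3* DKO mice and a log2 fold change of 0.94 (adjusted p = 0.128, edgeR).

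**Figure D5:**
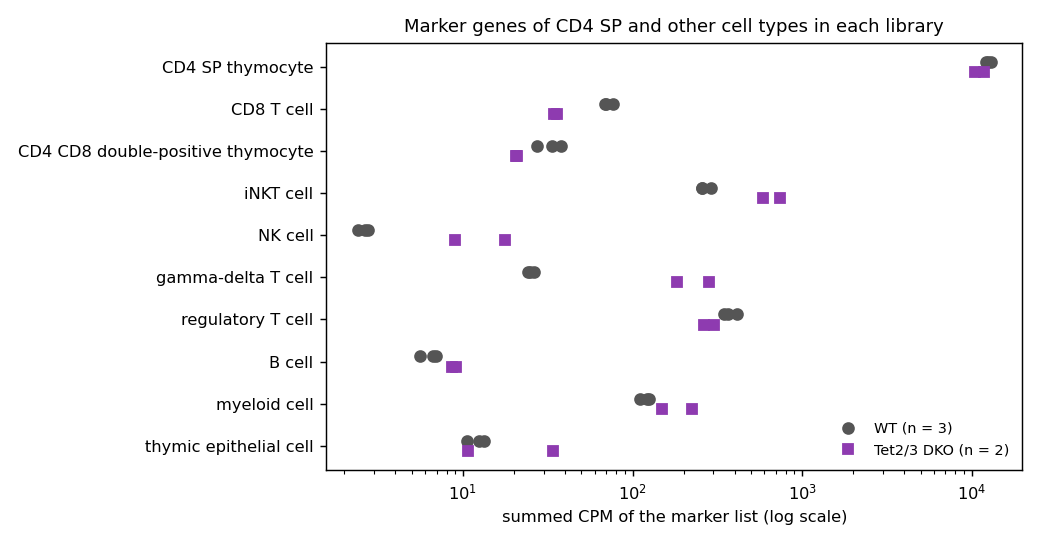
Summed CPM of each marker list (horizontal axis, log scale) in the 3 WT libraries (grey circles) and the 2 *Tet2/3* DKO libraries (purple squares); erythroid markers, which sum to 0 in some libraries, are not drawn. The iNKT, NK, gamma-delta, myeloid and B cell lists have both purple squares right of all grey circles, the CD4 SP, CD8, double-positive and regulatory T cell lists have both left of them, and the thymic epithelial list overlaps.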

How the data were processed

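RNA of sorted CD4 SP cells was copied with SMART-seq chemistry, which keeps neither strand nor molecular identifiers. Per the labels and the methods, the authors trimmed reads with fastp 0.21.0, aligned them to mm10 (annotation GRCm38.100) with STAR 2.7.5a, and deposited raw read counts per gene, neither normalized nor pooled. Reads on several places or genes were left out. STAR's summary rows held 20.8% to 23.7% of the reads of a library and were not used. Of 55487 gene identifiers, 55141 were named by GENCODE M21 (mm10), which also gave coordinates and lengths. Promoter sequences are RefSeq's (GRCm38.p6). Clonotype tables were not used.

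The unstranded counts went into edgeR 4.0.16 in R 4.3.3 (filterByExpr, TMM, newer quasi-likelihood moderation, Benjamini-Hochberg adjustment over all 13525 tested genes, threshold 0.01 as in the study). Standard errors are the log2 fold change over the square root of F. CPM are TMM-scaled, and log2 CPM used a prior count of 2. DESeq2 1.42.0 was an alternative. The fit was tested on simulated data. The genes, lists and tests were chosen with earlier results of these data known. Named beside the 4 genes are called list genes, genes of each list with a known tie to a SOCS gene (chosen after their values were seen), and the 3 genes of nearest profile (mean log2 CPM 3 or more). Nothing says whether mice shared a litter. The p-values rest on the spread between these 5 mice, with that of each gene moderated toward the spread of all genes. Some genes of the lists are counted but not reported here by name.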

Additional observations from a re-analysis of the deposited data

How the results depend on the processing

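With 3 against 2 libraries the calls depend on the tool and on the WT libraries, while no direction of a SOCS gene changed. DESeq2's Wald test called 4 of the 4 SOCS genes, 1027 genes in all and 27 pathway genes, with *Socs1* at 0.65 and *Socs2* at -1.48. Its 27 are counted without the edgeR filter. Among the 105 list genes that edgeR tested, DESeq2 called 16 higher and 10 lower. The threshold of 0.05 gave 4 SOCS genes (*Socs1* at 0.66, *Socs2* at -1.50), 1174 genes in all, or 8.68% of those tested, and 27 pathway genes, against 2, 530 and 15 as reported. Leaving out each library in turn gave 0 to 4 SOCS genes, 110 to 1312 genes in all and 3 to 34 pathway genes, the low ends without a WT library (0 SOCS genes whichever of the 3 was left out) and the high ends without a *Tet2/3* DKO library. Over these fits the log2 fold changes ran from 0.49 to 0.82 for *Socs1*, from -2.11 to -1.03 for *Socs2*, from 0.99 to 1.66 for *Socs3* and from -0.96 to -0.78 for *Cish*. A fit without a *Tet2/3* DKO library assumes that the lone library varies like the WT libraries. The replicate block, in which WT and *Tet2/3* DKO libraries of the same number are paired, left 1 SOCS gene, with *Cish* at -0.86 (adjusted p = 0.0344, edgeR), and 359 genes in all. By their labels the libraries share only a number. The correlations of same-numbered deviations from the group means were 0.015 and 0.0045. With 2 *Tet2/3* DKO libraries these deviations mirror each other, so the correlations cannot settle whether libraries were paired. The sum of the strand columns was added after the data were seen. Normalization, filter, moderation and strand column changed no call of a SOCS gene. *Socs2* had the lowest counts and the widest standard error of the 4 genes.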

Other observations

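The remaining marker lists gave low values. Of 5 DP thymocyte markers *Rag1* had 0 reads in all 5 libraries and *Rag2* at most 1, and the list summed to 27.3 to 37.9 CPM in WT and 20.5 to 20.7 in *Tet2/3* DKO libraries. B cell markers summed to 5.61 to 6.96 CPM in WT and 8.62 to 9.11 in *Tet2/3* DKO libraries. Thymic epithelial markers summed to 10.6 to 13.3 CPM in WT against 10.7 and 34 in *Tet2/3* DKO mice, the higher value coming mostly from *Epcam*, with 604 reads. *Psmb11*, which is specific to cortical thymic epithelium, had 39, 22 and 18 reads in WT against 1 and 0 in *Tet2/3* DKO mice. Erythroid markers had at most 3 reads each in any library.

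The sum of the 4 SOCS genes was 82.0, 90.2 and 101 CPM in the WT libraries and 124 and 130 CPM in the *Tet2/3* DKO libraries. *Cish* made up 27.2% to 32.6% of the reads on the 4 genes in WT against 12.9% and 10.8% in *Tet2/3* DKO mice, and *Socs3* 18.0% to 20.9% and then 28.6% and 42.9%. These are shares of reads on the counts without regard to strand and are not corrected for length.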
